A study of Mus musculus with 9 samples.

Results

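YAP/TAZ regulators and targets were taken as 8 named genes: the coactivator genes Yap1 and Wwtr1, the DNA-binding partner gene Tead1, the kinase genes Lats1 and Lats2, and the target genes Cyr61, Ctgf and Amotl2. Of these 8 members, 7 were found among the 9277 genes of the table. Tead1 was not among them and was not analysed here. The libraries came from mouse lung endothelial cells, with 4 libraries of wild type Tie1 (Tie1-WT) and 5 libraries of Tie1-CR, a Tie1 made resistant to proteolytic cleavage. Tie1 is a receptor of the endothelial Tie family. All 9 library names carry PBS, and no further treatment separates the groups. The sources used here do not give the age, sex or strain of the mice, how the cells were isolated, or the design of the Tie1-CR allele. The comparison asks what blocking Tie1 cleavage changes in the transcripts of these cells.

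YAP (from Yap1) and TAZ (from Wwtr1) are transcriptional coactivators that carry mechanical and cell-contact cues to the nucleus, where they bind TEAD factors. The Hippo kinases LATS1 and LATS2 phosphorylate them and keep them in the cytoplasm. In endothelium the pathway is known for its part in sprouting, junction turnover and the response to flow. Cyr61 and Ctgf, named Ccn1 and Ccn2 in newer annotations, encode secreted matricellular proteins and are the most used readouts of YAP/TAZ activity. Both are also rapidly induced by serum and growth signals. Amotl2 and Lats2 are targets that encode inhibitors of the pathway.

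Cyr61 and Wwtr1 fell in Tie1-CR. The fall was 1.94-fold for Cyr61 and 1.23-fold for Wwtr1. Neither Yap1 nor the kinase genes Lats1 and Lats2 passed the test, and neither did Ctgf or Amotl2. So 2 of the 7 measured members were called, both lower, against 4.05% of all genes called in either direction and 2.77% called lower (limma, Benjamini-Hochberg adjusted p below 0.05). No member was called higher, against 1.28% of all genes. The groups of the same 2 members did not overlap, both lower, against 10.5% of all genes (6.74% lower and 3.74% higher). Levels are reads of a gene scaled to the counted reads of its library (CPM), differences are Tie1-CR minus Tie1-WT on the scale log2(CPM + 1), and fold changes come from that scale. These are bulk libraries, in which fewer cells of a type and less RNA per cell cannot be told apart.

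TEAD factors bind the sequence GGAATG, so the start regions of the members were read for it, with its reverse complement CATTCC. RefSeq promoter windows in GRCm38.p6 were found for 6 of the 7 measured members, without one for Ctgf. The 250 bases before the start held GGAATG on either strand in 4 members, Yap1, Wwtr1, Cyr61 and Amotl2, and 14.4% of the 27025 genes with a window held it. Some genes have several windows, and by window it was in 5 of the 8 of the members and in 12.6% of all 32851. Neither Lats1 nor Lats2 held it in the windows read. The windows of Lats2 and Amotl2 lie inside the gene spans given below, so the bases before the outer starts of those spans were not read. TGANTCA, a loose form of the AP-1 motif with any base in the middle, was read on both strands. It was in 0 of the 6 members and in 7.82% of all genes. The CArG box, the site of the serum response factor SRF, was in 0 of the 6 and in 1.62%. Sites farther than 250 bases before the start were not read for any of these motifs. A link between the regulators and the targets through this sequence was not tested. Windows of the 4 members with GGAATG are shown. They are written 5′ to 3′ along the gene, with the motif in capitals and the last base next to the start site.
Cyr61, chr3:145649986-145650235, minus strand: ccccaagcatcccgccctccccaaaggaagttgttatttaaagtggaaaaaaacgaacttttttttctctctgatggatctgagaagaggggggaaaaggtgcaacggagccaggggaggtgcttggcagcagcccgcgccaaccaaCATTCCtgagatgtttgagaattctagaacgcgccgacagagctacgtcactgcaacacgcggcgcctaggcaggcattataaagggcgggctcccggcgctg
Amotl2, chr9:102717554-102717803, plus strand: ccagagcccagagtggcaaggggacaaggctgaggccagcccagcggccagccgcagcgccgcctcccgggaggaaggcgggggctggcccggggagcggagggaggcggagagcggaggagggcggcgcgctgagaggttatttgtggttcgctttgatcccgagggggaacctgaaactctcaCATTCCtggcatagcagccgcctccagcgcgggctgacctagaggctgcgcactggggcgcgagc
Wwtr1, chr3:57575911-57576160, minus strand: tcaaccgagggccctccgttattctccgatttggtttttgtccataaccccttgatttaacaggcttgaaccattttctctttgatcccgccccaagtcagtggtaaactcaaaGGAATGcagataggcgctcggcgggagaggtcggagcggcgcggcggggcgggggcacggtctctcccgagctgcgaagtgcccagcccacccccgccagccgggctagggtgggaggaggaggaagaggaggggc
Yap1, chr9:8004597-8004846, minus strand: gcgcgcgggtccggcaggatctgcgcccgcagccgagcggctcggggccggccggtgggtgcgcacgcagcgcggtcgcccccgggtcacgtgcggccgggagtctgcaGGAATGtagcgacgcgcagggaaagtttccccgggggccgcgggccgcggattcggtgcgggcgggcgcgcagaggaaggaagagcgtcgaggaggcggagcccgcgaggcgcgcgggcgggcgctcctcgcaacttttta
The motif begins 103 bases before the start in Cyr61, 65 in Amotl2, 136 in Wwtr1 (from the upstream one of its 2 start sites) and 141 in Yap1. A match is a stretch of letters and not a measured binding site. The called members Cyr61 and Wwtr1 both held it, and so did Amotl2 and Yap1, which did not pass.

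**Figure D1:**
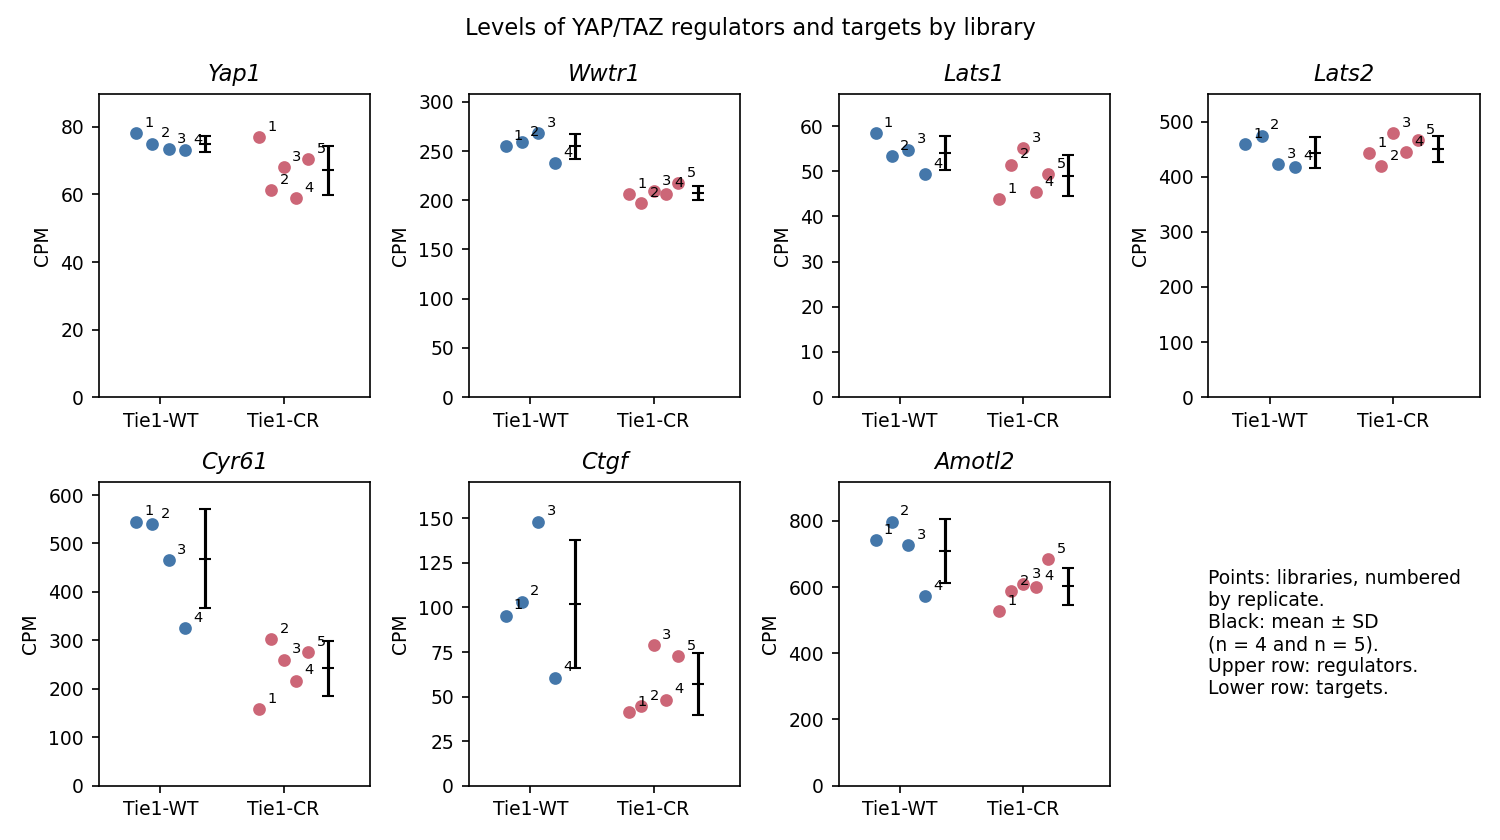
CPM of the 7 measured members in each library (points, numbered by replicate), with mean ± SD in black for 4 Tie1-WT and 5 Tie1-CR libraries. All Tie1-CR points lie below all Tie1-WT points for Wwtr1 and Cyr61, and the groups overlap for the other members.

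Wwtr1, the gene of TAZ on chromosome 3 (57455649 to 57575910 in GRCm38), measured 255, 259, 268 and 238 CPM in Tie1-WT replicates 1 to 4. In Tie1-CR replicates 1 to 5 it measured 206, 197, 209, 207 and 218 CPM. The highest Tie1-CR library therefore lay below the lowest Tie1-WT library, and the spread within each genotype was narrow. The means were 255 ± 12.8 CPM (SD, n = 4) and 207 ± 7.38 CPM (SD, n = 5), a difference of -0.30 log2 (SE 0.049, limma adjusted p = 0.0108). A total of 63 genes of the table had a smaller p. Leaving out Tie1-WT replicate 1 ended the call (limma adjusted p = 0.0509), where the difference was still -0.30 log2.

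Yap1, the gene of YAP on chromosome 9 (7931999 to 8004596), measured 78.1, 75.1, 73.4 and 73.0 CPM in Tie1-WT. The Tie1-CR libraries measured 77.0, 61.4, 68.0, 59.0 and 70.5 CPM. Tie1-CR replicate 1 lay among the Tie1-WT libraries, and the other 4 lay below them. The difference of -0.16 log2 (95% interval -0.32 to -0.0026, limma adjusted p = 0.218) did not pass. The difference was below 0 in each of the 21 alternative fits, from -0.21 to -0.12 log2, and passed in 0 of them.

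Whether Wwtr1 fell more than Yap1 was tested on their ratio within each library. The log2 ratio of Wwtr1 to Yap1 was 1.75 ± 0.079 (SD, n = 4) in Tie1-WT and 1.62 ± 0.14 (SD, n = 5) in Tie1-CR. The groups overlapped (two-sided exact permutation p = 0.135, adjusted p = 0.18 over the 4 pairs tested in this way). The call of Wwtr1 without one of Yap1 therefore does not show that the 2 coactivator genes differed in their response. The smallest p that this test can give with these group sizes is 0.0079.

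Lats1 and Lats2 encode the kinases that phosphorylate YAP and TAZ. Lats1, on chromosome 10 (7681214 to 7716460), measured 49.4 to 58.5 CPM in Tie1-WT and 43.8 to 55.1 CPM in Tie1-CR, a difference of -0.14 log2 (95% interval -0.30 to 0.020, limma adjusted p = 0.283). Lats2, on chromosome 14 (57689662 to 57758388), measured 459, 475, 423 and 418 CPM in Tie1-WT and 443, 420, 479, 444 and 467 CPM in Tie1-CR. Its difference was 0.022 log2 (95% interval -0.10 to 0.15, limma adjusted p = 0.853), the smallest of the members in size. Lats2 is both a kinase gene and a reported target, and its interval did not reach the fall seen in the target Cyr61. The ratio of Lats2 to Lats1 was 3.02 ± 0.094 log2 (SD, n = 4) in Tie1-WT and 3.18 ± 0.13 log2 (SD, n = 5) in Tie1-CR (two-sided exact permutation p = 0.0794, adjusted p = 0.159 over the 4 pairs).

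Cyr61, the gene of the secreted integrin ligand CCN1 on chromosome 3 (145646976 to 145649981), measured 545, 540, 465 and 325 CPM in Tie1-WT. The Tie1-CR libraries measured 158, 302, 260, 217 and 276 CPM. The groups did not overlap, though Tie1-WT replicate 4 lay closer to the highest Tie1-CR library than to the other Tie1-WT libraries. The means were 469 ± 103 CPM (SD, n = 4) and 243 ± 56.6 CPM (SD, n = 5), a difference of -0.95 log2 (SE 0.19, limma adjusted p = 0.0241). Among all 9277 genes, 27 had a larger fall. Leaving out Tie1-WT replicate 1, 2 or 3 ended the call (limma adjusted p = 0.0911, 0.0771 and 0.0585), and so did leaving out Tie1-CR replicate 4 (0.0544), while the difference stayed between -1.12 and -0.81 log2 with each library left out.

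Ctgf, the gene of the connective tissue growth factor CCN2 on chromosome 10 (24595442 to 24598683), measured 95.4, 103, 148 and 60.7 CPM in Tie1-WT. The Tie1-CR libraries measured 41.1, 44.7, 78.9, 48.3 and 72.8 CPM. Tie1-WT replicate 4 lay within the Tie1-CR range, and the other 3 Tie1-WT libraries lay above it. The difference was -0.80 log2 (95% interval -1.35 to -0.26), of a size near that of Cyr61, and did not pass (limma adjusted p = 0.0904). Only 46 genes had a larger fall, but 791 had a smaller p. Without Tie1-WT replicate 4 the difference was -1.03 log2 and passed (limma adjusted p = 0.0323).

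Amotl2, the gene of an angiomotin family protein that holds YAP at junctions, lies on chromosome 9 (102716672 to 102733418). It measured 741, 798, 726 and 573 CPM in Tie1-WT and 527, 588, 609, 601 and 685 CPM in Tie1-CR. Again Tie1-WT replicate 4 lay within the Tie1-CR range and the other 3 above it. The difference was -0.23 log2 (95% interval -0.45 to -0.016, limma adjusted p = 0.192). Without Tie1-WT replicate 4 it was -0.33 log2 (limma adjusted p = 0.0505).

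**Figure D2:**
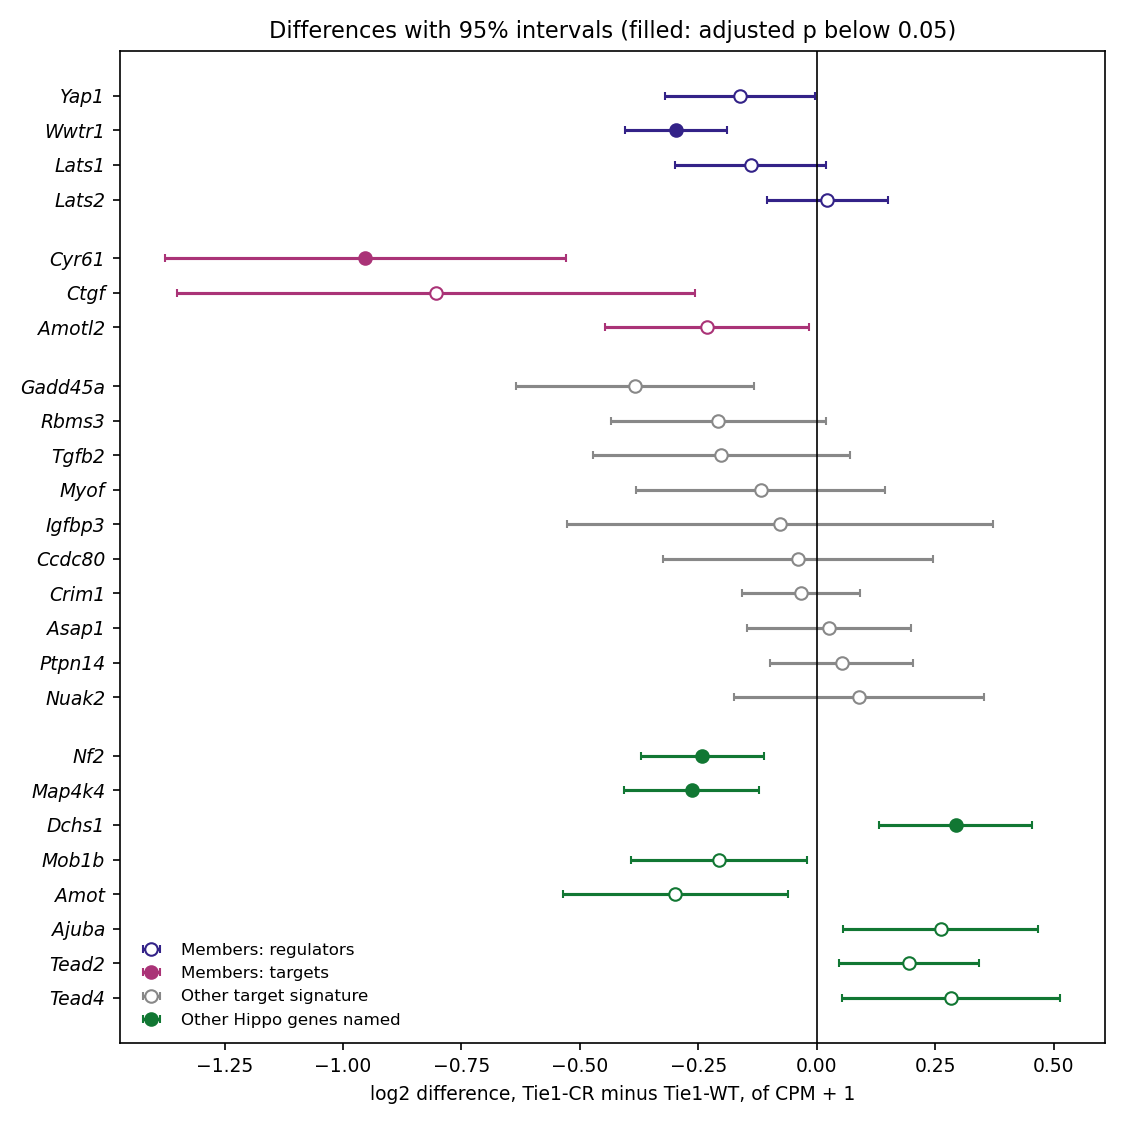
Log2 differences (Tie1-CR minus Tie1-WT, of CPM + 1) with 95% intervals for the members, the other measured genes of the target signature and the Hippo genes named in the text. Filled points passed the limma test, and Cyr61 at -0.95 and Ctgf at -0.80 lie farthest from 0.

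Whether the targets differed from each other in their response was read from ratios within libraries. The log2 ratio of Cyr61 to Amotl2 was -0.62 ± 0.16 (SD, n = 4) in Tie1-WT and -1.34 ± 0.29 (SD, n = 5) in Tie1-CR, without overlap (two-sided exact permutation p = 0.0159). Adjusted over the 4 pairs this was 0.0636 and did not pass. The log2 ratio of Cyr61 to Ctgf was 2.23 ± 0.40 (SD, n = 4) and 2.08 ± 0.39 (SD, n = 5), with overlap (exact permutation p = 0.595, adjusted p = 0.595). The pairs were chosen with earlier results of these data known.

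**Figure D3:**
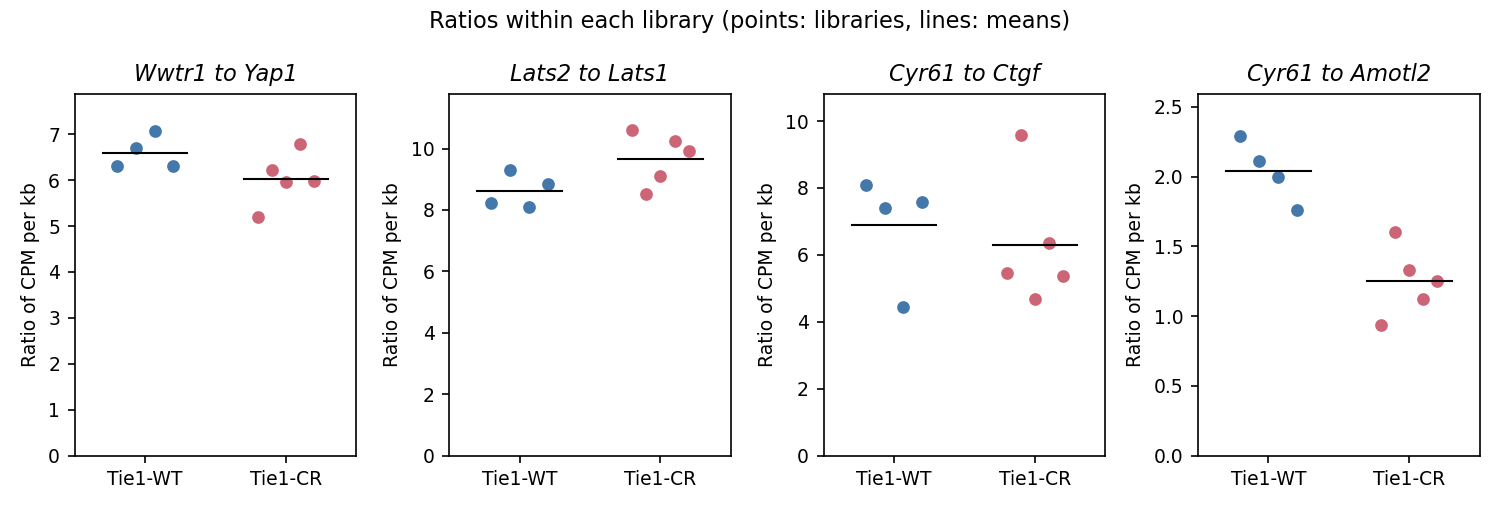
Ratios of CPM per kb of exon between pairs of members within each library (points), with group means as lines. The Cyr61 to Amotl2 ratio runs from 1.76 to 2.29 in Tie1-WT and from 0.934 to 1.60 in Tie1-CR, and the groups overlap for the other pairs.

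Tie1-WT replicate 4 was the lowest of the 4 Tie1-WT libraries for all 7 measured members. The margin to replicate 3 was small for Yap1 (73.0 against 73.4 CPM) and Lats2 (418 against 423 CPM). How many of all genes were lowest in this library was not counted, so the rank may not be particular to the members. Among the Tie1-CR libraries, replicate 1 was the lowest for 4 members (Lats1, Cyr61, Ctgf and Amotl2) and the highest for Yap1. Rapidly induced genes, a list of 18 such as Egr1, Fos and Atf3 that was measured in full, summed to 20540, 22621, 19760 and 15595 CPM in Tie1-WT replicates 1 to 4, again lowest in replicate 4. In Tie1-CR replicates 1 to 5 they summed to 12131, 11911, 13432, 10931 and 14534 CPM, lowest in replicate 4 and not in replicate 1. Of this list 12 fell and 0 rose, against 2.77% of all genes called lower and 1.28% called higher. Its median was -0.82 log2 against -0.027 over all genes. Egr1, a zinc finger transcription factor, fell by 1.42 on the log2 scale (limma adjusted p = 0.000657). The part of this list's fall in that of Cyr61 was not tested.

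Scaled to gene length, the order of the 7 members in Tie1-WT was Cyr61, Amotl2, Lats2, Wwtr1, Ctgf, Yap1 and Lats1. In CPM per kb of exon the means were 232 ± 50.9, 113 ± 15.2, 63.7 ± 3.93, 53.4 ± 2.67, 35.6 ± 12.6, 8.09 ± 0.252 and 7.40 ± 0.511 (SD, n = 4). Neighbours in this order did not overlap between libraries, apart from Wwtr1 with Ctgf and Yap1 with Lats1. In Tie1-CR the order was the same, with means of 120 ± 28.0, 95.7 ± 8.99, 64.6 ± 3.32, 43.4 ± 1.54, 20.0 ± 6.08, 7.25 ± 0.781 and 6.72 ± 0.628 CPM per kb (SD, n = 5). There Cyr61 (78.3 to 150 CPM per kb) overlapped with Amotl2 (83.7 to 109 CPM per kb), while Wwtr1 no longer overlapped with Ctgf. Per length, TAZ transcript was 6.60 times as abundant as YAP transcript in Tie1-WT and 6.03 times in Tie1-CR, and Lats2 transcript 8.62 and 9.68 times as abundant as Lats1.

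**Figure D4:**
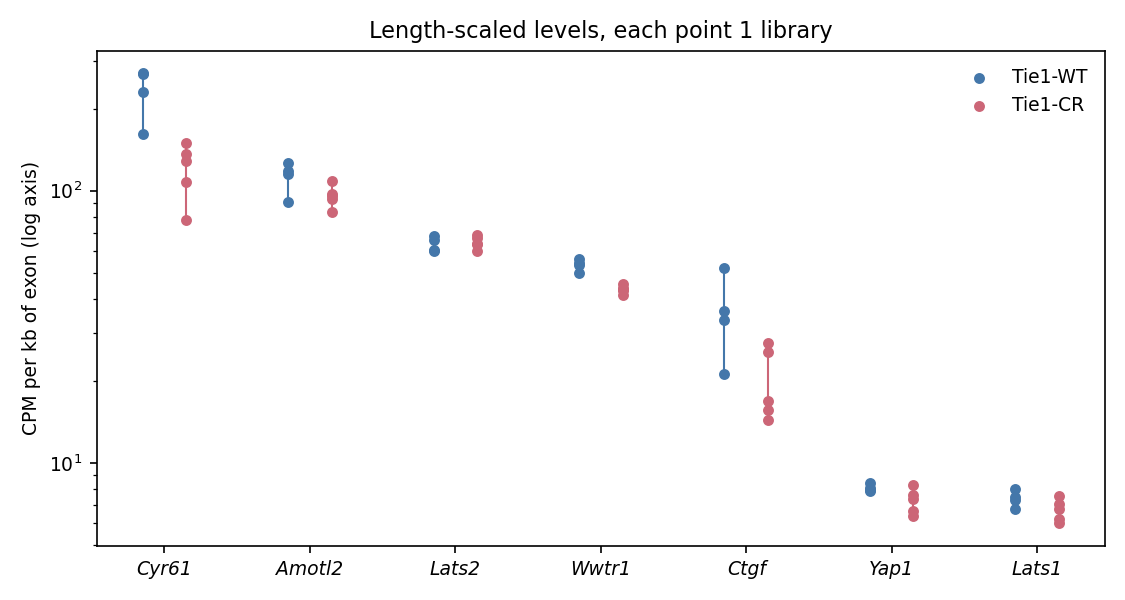
CPM per kb of exon (log axis) of the 7 measured members in each Tie1-WT and Tie1-CR library, with vertical lines from the lowest to the highest library. Yap1 and Lats1 lie lowest, between 6.00 and 8.44 CPM per kb, and the Tie1-CR points of Cyr61 overlap with those of Amotl2.

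The other TEAD factors were measured in part. Of the 4 TEAD genes, Tead2 and Tead4 were in the table and Tead3, like Tead1, was not. Tead2 measured 29.2 to 35.2 CPM in Tie1-WT and 35.6 to 41.3 CPM in Tie1-CR, without overlap, a difference of 0.20 log2 (limma adjusted p = 0.118). Tead4 measured 15.9 to 24.5 CPM and 23.1 to 27.7 CPM, a difference of 0.28 log2 (limma adjusted p = 0.138). Per kb of exon the means were 6.86 CPM for Tead2 and 5.78 CPM for Tead4 in Tie1-WT. Neither passed, and both differences lay above 0. Both had an unadjusted p below 0.05, as did 22.3% of all genes. The difference of Tead2 was 0.11 log2 with the GC and length correction and that of Tead4 0.17 log2 without Tie1-WT replicate 1.

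Among the remaining Hippo genes, few passed. Of 50 measured genes on the lists of coactivators, TEAD factors, kinases, upstream regulators and cofactors that are not members, 2 fell and 1 rose, against 4.05% of all genes, and their median was -0.029 log2 against -0.027 over all genes. Nf2, which encodes merlin, an activator of the LATS kinases at the membrane, fell by 0.24 on the log2 scale, with 85.2 ± 5.03 CPM (SD, n = 4) in Tie1-WT and 71.9 ± 4.56 CPM (SD, n = 5) in Tie1-CR. Map4k4, a kinase gene that acts on LATS beside the core cascade, fell by 0.26, with 171 ± 4.96 and 142 ± 13.1 CPM. Dchs1, the protocadherin ligand of FAT4, rose by 0.29, with 89.4 ± 5.87 and 110.0 ± 10.1 CPM. Their adjusted p in limma was 0.0451, 0.0463 and 0.0498.

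All 3 of these calls were close to the threshold. Each ended in 8 of the 9 fits that left out 1 library, the exceptions being Tie1-CR replicate 5 for Nf2, Tie1-CR replicate 4 for Map4k4 and Tie1-CR replicate 1 for Dchs1. The adjusted p then reached 0.151, 0.127 and 0.159. With TMM scaling the calls of Nf2 and Map4k4 ended at -0.22 and -0.24 log2 (limma adjusted p = 0.0764 and 0.0582), and with the GC and length correction that of Dchs1 ended at 0.18 log2 (0.166). All 3 ended with the replicate block (0.0786, 0.0958 and 0.0602 in limma) and with the markers of other cell types as a covariate (0.0718, 0.0941 and 0.103).

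The core kinase cassette showed no call. Of 9 measured genes (Lats1, Lats2, Stk3, Stk4, Sav1, Mob1a, Mob1b, Stk38 and Stk38l), 0 passed in limma and 1 had an unadjusted p below 0.05, Mob1b, a coactivator of LATS (-0.21 log2, adjusted p = 0.181). Of 23 measured inhibitors and cofactors, Amotl2 included, 0 passed in limma and 4 had an unadjusted p below 0.05. Over all genes 4.05% passed and 22.3% had an unadjusted p below 0.05, so neither list stood above the background. The smallest p among inhibitors and cofactors were those of Ajuba, a LIM protein gene that restrains LATS (0.26 log2, adjusted p = 0.128, and 0.15 log2 without Tie1-WT replicate 3), and of Amot, the founding angiomotin gene (-0.30 log2, adjusted p = 0.131). Among the angiomotins, Amotl2 was the most abundant per length in Tie1-WT at 113 CPM per kb, against 12.4 CPM per kb for Amotl1 and 1.59 CPM per kb for Amot.

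The wider set of YAP/TAZ targets held no call beside that of Cyr61. In a signature of 22 targets reported across tissues, 14 were measured. Of these, 1 fell (Cyr61) and 0 rose, against 2.77% of all genes called lower and 1.28% called higher. Their median was -0.098 log2 against -0.027 over all genes. Of the 10 measured genes of the signature that are not members, 0 passed in limma and 1 had an unadjusted p below 0.05, Gadd45a, a DNA damage and growth arrest gene (chosen after its values were seen). Over all genes 4.05% passed and 22.3% had such a p, so neither count stood above the background. Gadd45a measured 8.27 to 10.7 CPM in Tie1-WT and 5.58 to 7.98 CPM in Tie1-CR, a difference of -0.38 log2 (limma adjusted p = 0.0802). The abundant signature gene Crim1, which encodes a transmembrane BMP binder and was also chosen afterwards, differed by -0.034 log2 (95% interval -0.16 to 0.091). Ptpn14, a phosphatase gene that is both a target and an inhibitor of YAP, differed by 0.053 log2 (95% interval -0.098 to 0.20). The 8 signature genes that are not in the table include Ankrd1 and Axl and were not analysed here. Of the 6 CCN genes, Cyr61 and Ctgf were measured.

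A list of actin and SRF-related genes, which share inducers with Cyr61 and Ctgf, held 1 call among 18 measured, near the 4.05% of all genes called. The list includes Srf, Mkl1 and Mkl2, which encode factors and not only targets. Egr1 and Fos, which both fell, were on the list of rapidly induced genes and not on this one. The count therefore does not stand for SRF targets as a whole. Actg1, the cytoplasmic gamma actin gene, fell by 0.81 on the log2 scale, with 46.3 ± 9.45 CPM (SD, n = 4) in Tie1-WT and 25.8 ± 3.70 CPM (SD, n = 5) in Tie1-CR (adjusted p = 0.0107 in limma). How reads shared with its near-identical copies were counted is not given in the sources used here, so its level is uncertain. Leaving out Tie1-WT replicate 1 ended the call at -0.73 log2 (adjusted p = 0.0509 in limma). The median of the list was -0.080 log2. Srf itself measured 48.5 ± 8.79 and 40.5 ± 2.56 CPM (adjusted p = 0.228) and is named after its values were seen.

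The genes whose pattern over the 9 libraries was most like that of each member were found by Pearson correlation of log2(CPM + 1), given as a description because both genotypes and a common scaling enter it. For Cyr61 they were Hipk1 (r = 0.989), Epha1 (0.986) and Tfdp2 (0.985), and of these Epha1 also fell (-0.88 log2, limma adjusted p = 0.0252). For Ctgf they were Lrp12 (0.980), Ddit4 (0.976) and Klf6 (0.965). For Amotl2 they were Snai2 (0.968), Deptor (0.959) and D5Ertd579e (0.937). For Wwtr1 they were Setdb2 (0.977), Sat1 (0.976) and Ncl (0.974), and all 3 fell. Yap1 was most like Hsdl2 (0.963), Chmp5 (0.962) and Ube2b (0.961), Lats1 most like Rfx7 (0.979), Ube3a (0.966) and 0610010F05Rik (0.965), and Lats2 most like Avl9 (0.865), Acly (0.864) and Thsd1 (0.850). No member appeared among the 3 nearest genes of another.

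Endothelial markers were measured in full, 10 of 10, with a summed level of 17066 to 18843 CPM in Tie1-WT and 18771 to 19506 CPM in Tie1-CR. Of these, 1 passed, against 4.05% of all genes. It was the endothelial transcription factor gene Erg, which fell by 0.41 on the log2 scale (limma adjusted p = 0.00516). Of the 10 endothelial markers, 8 had a difference above 0 and 2 below 0, with a median of 0.067 log2. YAP/TAZ targets are also expressed by fibroblasts, mural cells and epithelium. Fibroblast markers (3 of 8 measured, without Pdgfra) summed to 15.4 to 60.3 CPM in Tie1-WT and 10.6 to 53.6 CPM in Tie1-CR, and mural markers (3 of 8, without Pdgfrb) to 30.4 to 55.7 and 23.7 to 70.6 CPM. Type 1 pneumocyte markers (6 of 8, without Pdpn) summed to 953 to 1182 and 995 to 1116 CPM, most of it from Clic5 (means of 868 and 855 CPM). All 6 had a difference below 0, with a median of -0.33 log2, and 0 passed, against 4.05% of all genes. Type 2 and airway markers (8 of 10, without Epcam) summed to 123 to 481 CPM and 333 to 676 CPM. Within Tie1-WT they were highest in replicate 4, where the members were lowest. Within Tie1-CR they were highest in replicate 5, which was the lowest library for 0 members and the highest for Wwtr1 and Amotl2. Their lowest Tie1-CR library was replicate 1, which was also the lowest for 4 members. All 8 type 2 and airway markers had a difference above 0, with a median of 1.12 log2, and 3 rose, against 1.28% of all genes. These were Sftpd and Cyp2f2 by 1.14 log2 each and Cbr2 by 1.31 log2 (limma adjusted p = 0.0440, 0.0428 and 0.0232). The part of the type 2 and airway markers in the falls of Cyr61 and Wwtr1 was not tested. The covariate fit given last pools the markers of all other cell types. Leukocyte and platelet markers (5 of 10, without Ptprc) summed to 59.3 to 154 and 130 to 181 CPM. Of these, 4 had a difference above 0 and 1 below 0, with a median of 0.35 log2. The 1 below 0 was the macrophage gene Cd68, which fell by 0.90 on the log2 scale (limma adjusted p = 0.00640). Lyz2, on the same list, differed by 1.11 log2 and did not pass (limma adjusted p = 0.0669). Of the 5 mesothelial markers, 0 were in the table. No measured marker was at 0 in any library. With the mean level of the markers of other cell types as a covariate, Cyr61 passed narrowly at -0.97 log2 (limma adjusted p = 0.0497) and Wwtr1 passed at -0.29 log2 (0.0309), while the calls of Nf2, Map4k4 and Dchs1 ended.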

How the data were processed

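RNA of lung endothelial cells was extracted with a PicoPure kit and made into libraries with the SMARTer Ultra Low kit from 50 to 100 ng of RNA, per the labels' protocols. STAR 2.7, GRCm38.p6 and mm10 are named in the submitters' processing notes. The sources used here name no counting tool and no gene filter. The deposited table is named as TPM, but its values were taken as CPM. The authors' column sums are 98.3% to 98.6% of the total that CPM would reach over all genes. TPM would reach the same total, so the sums do not separate the units, and the reading as CPM rests on the step between values. A search for the value of 1 read found every value to be a whole multiple of 1 step per library (tolerance 0.01 reads), which gives 38208696 to 54408116 counted reads. The members were read 1709 to 35253 times per library. The lowest of the genes' highest values is 10.0 CPM, so a gene under that level everywhere is not covered. Levels between genes were compared per kb of merged exons (GENCODE, GRCm38), where 9258 of 9277 symbols matched, 210 of them by a RefSeq synonym.

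The fit used log2(CPM + 1) of all genes, since a filter of 1 CPM in 4 libraries removed none, and was made with limma 3.58.1 in R 4.3.3 (trended empirical Bayes, two-sided, Benjamini-Hochberg, threshold 0.05). The test was planned for TPM and kept, as both units call for a log scale. Ratios were tested by exact permutation of the 9 libraries (126 arrangements). The members and lists were chosen with earlier results of these data known. Named genes are the members, the called genes of each pathway list or else its 2 smallest p, and the 3 genes most correlated with each member. Some genes that the rule selects are left out of the text. The fit was tested on simulated data of all 9277 genes for this comparison. It recovered 87% of genes changed by 0.5 log2 and 96% of those changed by 1 log2, with 9 false calls. Smaller changes, such as those of Wwtr1 and Yap1, were not simulated. Genes were drawn independently of each other, so shifts that genes share within a library are not covered. The labels do not say that libraries came from separate mice, so the p-values reflect the spread over libraries, which may be technical. The genotypes follow each other in the library names, so an effect of processing order cannot be told apart from genotype. Plots were drawn with matplotlib 3.10.9.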

Additional observations from a re-analysis of the deposited data

How the results depend on the processing

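Each member kept its direction in all 21 alternative fits, except Lats2, which was at -0.012 log2 after the GC and length correction and -0.029 with that correction and the replicate block together, and between -0.0053 and 0.055 with a library left out. Wwtr1 passed in 19 of 21 fits and Cyr61 in 16. Over fits that left out 1 library, members called ranged from 0 to 3, regulators from 0 to 1, targets from 0 to 2, signature genes from 0 to 2 and all genes from 60 to 355, and the differences ran from -0.33 to -0.27 log2 for Wwtr1, -1.12 to -0.81 for Cyr61 and -1.03 to -0.60 for Ctgf. With the replicate block 2 targets and 2 signature genes were called, Ctgf passing at -0.90 (limma adjusted p = 0.0209), and 183 of all genes. The libraries share only a number: deviations of same-numbered libraries correlated at -0.14, 0.0041, -0.060 and 0.19, and 1 of the 4 Tie1-WT libraries correlated best with its own number. With the block and the GC and length correction together, 1 member, 0 regulators and 116 genes were called, at -0.26 for Wwtr1 (0.0833), -1.02 for Cyr61 (0.0571) and -0.88 for Ctgf (0.0418). With library weights 2 signature genes and 661 genes were called, and with other cell type markers as a covariate 162 genes. The causes were not tested. All genes split into 119 higher and 257 lower calls, 182 and 190 with TMM scaling, 183 and 190 with quantile normalization, and 62 and 231 when GC content and length were corrected for. The planned count-based tests were not run.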
